A study of Rattus norvegicus with 18 samples.

Results

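The genes described here are the gp130 cytokines Cntf, Lif and Clcf1 and the receptors Il6st, Lifr, Cntfr, Osmr and Il6r, measured in rat spinal cord material on 18 single-channel Affymetrix arrays. The members were taken by the platform's gene symbols, and every probe set of a member was used. Of the 8 genes, 7 were among the 14217 named genes of the table, with 12 of the 31042 probe sets tested. No probe set carries the symbol Osmr in the annotation used, so the oncostatin M receptor was not analysed here. Il6st had 4 probe sets, Lifr and Cntfr 2 each, and Il6r, Cntf, Lif and Clcf1 1 each.

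Per the labels, 6 arrays were controls with no addition named. A further 6 had bone morphogenetic protein (BMP) added at 10 ng/mL and the last 6 had ciliary neurotrophic factor (CNTF) at that dose, both for "4d", read here as 4 days. No time is given for the controls, and the entry "14 NT" opens the description of all 3 groups and was not interpreted. The BMP family member, the rat strain, the age and the cell or culture type are not stated. Titles carry a number from 1 to 6 that occurs once per group, and each array is named here by its group and that number. After the number, the titles have the letter B for BMP, C for CNTF and F for the controls. The F was not interpreted. Separate animals or cultures are not mentioned for the arrays of a group. The p-values therefore rest on array-to-array spread alone, and part of it may be technical.

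Cytokines of this family signal through gp130, the shared receptor chain encoded by Il6st. CNTF binds first to its own alpha receptor, Cntfr, which is anchored to the membrane and has no cytoplasmic part, and then assembles Il6st and Lifr into a signalling complex. JAK kinases on these chains phosphorylate STAT3, which switches on target genes and the feedback inhibitor Socs3. In the nervous system the pathway is known for supporting neurons and for driving astrocyte differentiation and reactivity.

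Levels are log2(intensity + 116.655), and a difference is a difference of such levels. The constant damps the differences of dim probe sets, and alone it gives a level of 6.87. The table holds no detection calls. A level is therefore placed by its percentile among all probe sets of its own array, where a higher percentile means a brighter probe set. Probe sets differ in how strongly they bind, so a percentile does not rank genes by transcript number. Median intensities of the arrays lay between 666.5 and 817.2, and the number of arrays limits the precision. A marker was counted by its highest group mean. Markers of astrocytes, oligodendrocytes, oligodendrocyte precursors, neurons and fibroblasts reached the table median (5 of 7, 3 of 5, 5 of 5, 6 of 6 and 3 of 6 measured). None of 8 microglia and macrophage, 4 endothelial or 3 Schwann cell markers reached it. Among the neuron markers, Syt1 and Nefl reached it with BMP only. In such bulk material, fewer cells of a type and less RNA per cell cannot be told apart.

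The CNTF receptor chains differed in brightness. Il6st, the signalling chain, was at a median percentile of 83.4, 81.5, 69.8 and 55.9 of the control arrays by its 4 probe sets (1370957_at, 1371926_at, 1373140_at and 1383489_at). Cntfr, the CNTF-binding chain, was at 65.5 by 1394008_x_at and 62.3 by 1392749_at. Lifr, the partner chain shared with LIF, was lower in its arrays, at 35.1 by 1395957_at and 23.5 by 1369228_at. The probe sets of Il6st and Cntfr thus lay in the upper part of every control array, between percentiles 52.7 and 85.6, and those of Lifr between 16.5 and 39.8. Il6r, which binds interleukin 6, lay at 7.4, within the dimmest probe sets.

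**Figure D1:**
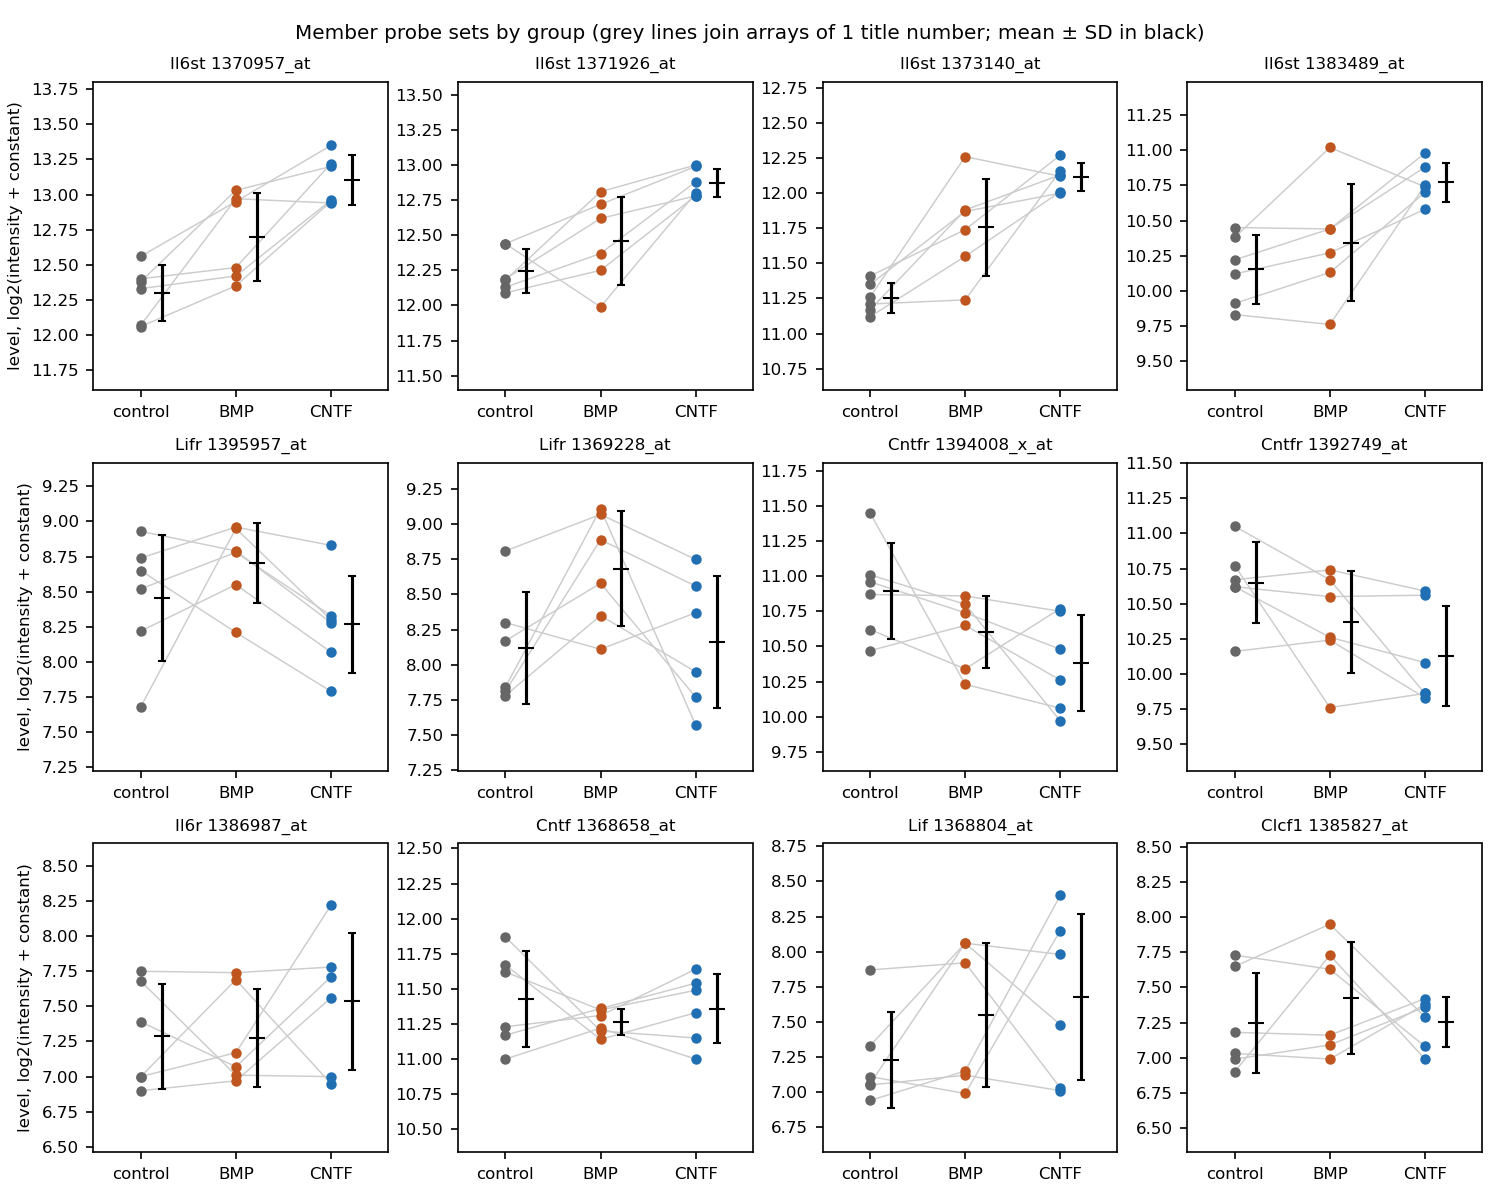
Levels of the 12 member probe sets, as log2(intensity + 116.655), in control, BMP and CNTF arrays; each point is 1 array, grey lines join the arrays of 1 title number, and black bars give the mean ± SD of 6 arrays. Every panel spans the same height on the log2 scale. The 4 Il6st panels have all CNTF points above all control points, while the groups overlap in the other 8 panels.

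Il6st was higher with CNTF by all 4 probe sets, and 3 of them passed the test. By 1370957_at the controls ran from 12.06 to 12.56 (median 12.36), the BMP arrays from 12.35 to 13.03 (median 12.71) and the CNTF arrays from 12.94 to 13.35 (median 13.08). The lowest CNTF array was thus above the highest control, and the BMP arrays overlapped both groups. The mean went from 12.30 ± 0.20 to 13.10 ± 0.18 (SD, n = 6), a difference of 0.80 ± 0.13 (limma moderated standard error) or 1.74-fold, with a limma adjusted p of 0.0016.

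The other Il6st probe sets had the same order of group means. By 1373140_at the controls ran from 11.12 to 11.41 and the CNTF arrays from 12.00 to 12.27, a difference of 0.86 ± 0.13 (1.81-fold, limma adjusted p = 0.0005). By 1371926_at they ran from 12.09 to 12.44 and from 12.78 to 13.00, a difference of 0.63 ± 0.12 (1.54-fold, adjusted p = 0.00567). By the dimmest, 1383489_at, they ran from 9.83 to 10.45 and from 10.58 to 10.98, and the difference of 0.62 ± 0.17 missed the threshold (adjusted p = 0.061). With the title number as a block this probe set was called too (adjusted p = 0.00609). No control array reached the level of any CNTF array by any of the 4, and the CNTF array was higher in 6 of 6 same-numbered pairs each time. The probe sets correlated with each other at r = 0.73 to 0.93 over the 18 arrays, which share the group differences, and at 0.40 to 0.87 after group means had been subtracted.

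All 3 member probe sets called for CNTF against control were higher with CNTF and belong to Il6st, 3 of 12, against 1.58% of all probe sets called higher in this comparison and 2.32% called either way. The block added 1, against 4.19% called higher with the block. None was called lower, against 0.738%, and 6 of the 12 had an unadjusted p under 0.05, the 4 of Il6st and the 2 of Cntfr. The groups did not overlap for 4 of the 12, all of Il6st, against 1.97% of all probe sets. The median difference of the 12 was 0.15 and that of all probe sets -0.007. Leaving out any 1 array or any 1 title number, the 3 calls were kept in 24 of 24 fits.

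With BMP, the mean of Il6st was higher by all 4 probe sets, and 1 of them was called. By 1373140_at the BMP arrays ran from 11.24 to 12.26 around a median of 11.80, and the mean rose from 11.25 ± 0.11 to 11.76 ± 0.34, a difference of 0.50 ± 0.13 (1.42-fold, limma adjusted p = 0.0207). Both groups overlapped, although the BMP array was higher in 6 of 6 pairs. By 1370957_at the difference was 0.40 ± 0.13, again higher in 6 of 6 pairs, and was not called without the block (adjusted p = 0.0828) but was with it (0.00878). The remaining probe sets differed by 0.21 ± 0.12 (1371926_at, adjusted p = 0.368) and 0.19 ± 0.17 (1383489_at, adjusted p = 0.627) and were not called with the block either (0.174 and 0.357).

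In this comparison 1 of 12 member probe sets was called higher, against 3.44% of all probe sets, and 2 with the block, against 9.1%. None was called lower, against 2.57%, and the groups overlapped for all 12, against 2.83% of all probe sets whose groups did not. The median difference of the 12 was 0.20, beside 0.011 over all probe sets. The call of 1373140_at was lost without BMP array 2 (difference 0.48, adjusted p = 0.0528), and without all arrays of number 1, 2 or 3 (adjusted p = 0.079, 0.125 and 0.0769).

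The BMP difference of Il6st varied with the title number. By 1373140_at it was 1.0, 0.71, 0.51, 0.04, 0.43 and 0.33 in numbers 1 to 6, and by 1370957_at it was 0.89, 0.65, 0.38, 0.09, 0.29 and 0.08. By 1371926_at it ran from -0.45 in number 4 to 0.63 in number 2. Numbers 1 to 3 thus held the larger rises by the 2 probe sets first named, and number 4 held the lowest or next to lowest difference by every probe set. The CNTF difference was more even by these 2 probe sets, between 0.64 and 0.96 by 1373140_at and between 0.63 and 0.89 by 1370957_at. By 1371926_at the CNTF difference ran from 0.35 to 0.82. By 1383489_at it ran from 0.36 to 0.92, and that of BMP from -0.07 to 0.64. Whether the spread over numbers differed between the additions was not tested.

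**Figure D2:**
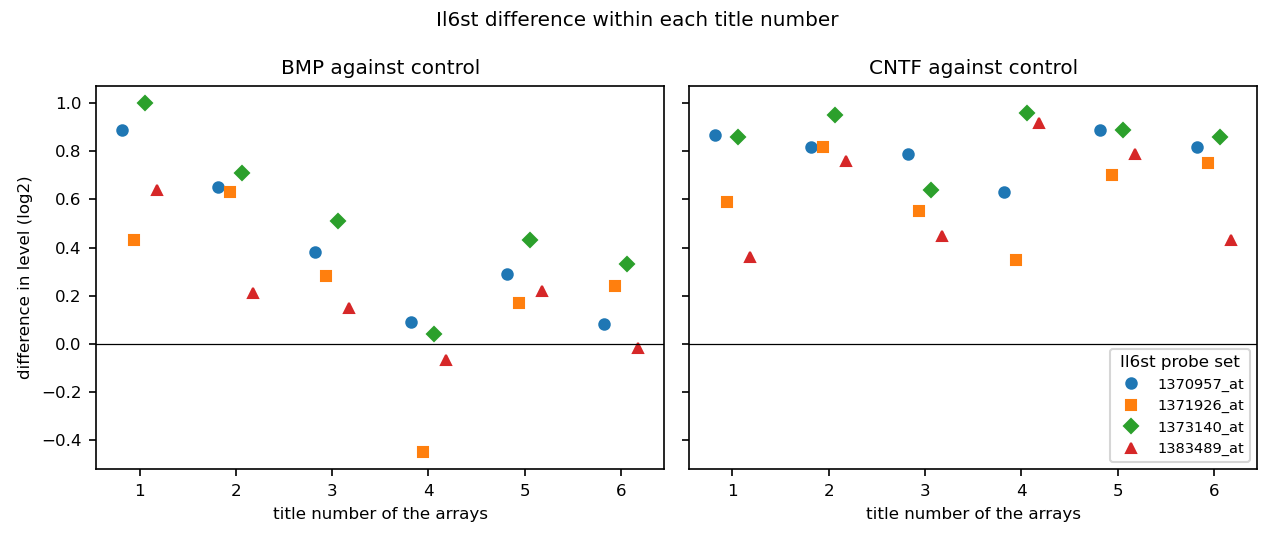
Difference in Il6st level (log2) between the treated and the control array of the same title number, for BMP (left) and CNTF (right); each symbol is 1 of the 4 probe sets, spread sideways for legibility. All 24 CNTF differences lie above 0, between 0.35 and 0.96, while the BMP differences run from -0.45 to 1.0.

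Set directly against each other, the BMP arrays were lower than the CNTF arrays by all 4 Il6st probe sets, by 0.36 to 0.43. The call was made for 1371926_at (-0.41 ± 0.12, limma adjusted p = 0.0456, lower with BMP in 6 of 6 pairs). The others had adjusted p-values of 0.08 (1370957_at), 0.111 (1373140_at) and 0.162 (1383489_at), and with the block all 4 were called (0.0107 for 1371926_at, and 0.00811, 0.038 and 0.0297 for the others). The order of Il6st levels was therefore CNTF, BMP, control by every probe set. CNTF and control stood apart, while by 2 of the 4 probe sets BMP did not pass the test against either neighbour without the block.

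Of 12 member probe sets 1 was called lower with BMP than with CNTF, against 2.99% of all probe sets, and 4 with the block, against 6.93%. None was called higher, against 3.24%, and the groups overlapped for all 12, against 2.95% of all probe sets whose groups did not. The call of 1371926_at was lost without any 1 of controls 1, 2 and 6, BMP arrays 4, 5 and 6, or CNTF arrays 1 to 6 (adjusted p = 0.0535 to 0.102, difference -0.43 to -0.32), and without any 1 title number (adjusted p = 0.0633 to 0.149).

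**Figure D3:**
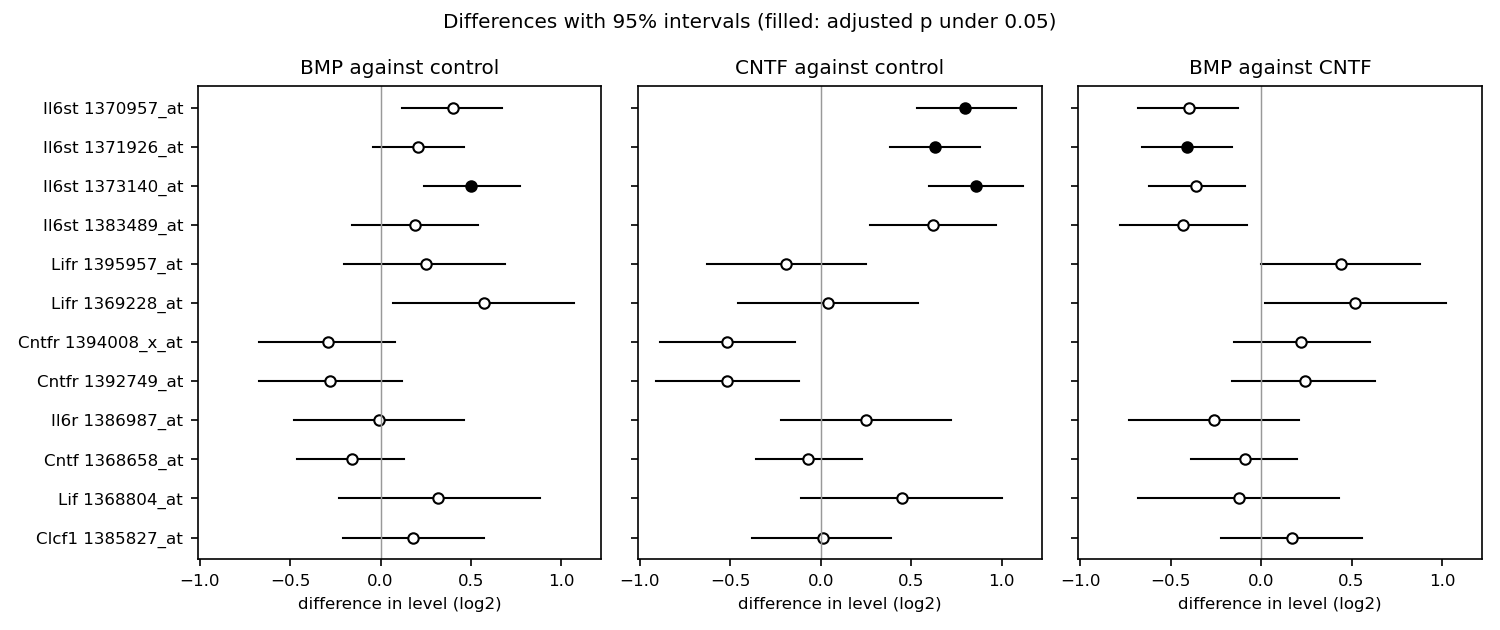
Differences in level (log2) for the 12 member probe sets in the 3 comparisons, the first group minus the second, with 95% intervals from the limma fit; filled points have an adjusted p under 0.05. The Il6st intervals for CNTF against control all lie above 0, and the filled points are all of Il6st.

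Markers of other cells moved beside these results. The summed intensity of 7 astrocyte markers was 60097 to 120327 in the controls and 121451 to 224547 in the CNTF arrays, which do not overlap, with the BMP arrays at 82793 to 173728. Without Gfap, the astrocyte intermediate filament, the 6 remaining markers summed to 59879 to 93373 and 65361 to 130313, which do. Taking Gfap out was chosen after its values were seen. Gfap was the 1 of the 7 called with CNTF. Of the uncalled astrocyte markers, Aqp4 was at 12.31 in the controls and 14.21 with CNTF, and Aldh1l1 at 12.33 and 10.93. With BMP, Aqp4 was at 14.64, and 1 of the 7 was called higher. With BMP, the sum of 5 oligodendrocyte precursor markers was 10176 to 71755, below the 78616 to 112868 of the controls, and all 5 were called lower. The sum of 5 oligodendrocyte markers was 55568 to 161798 in the controls and 13564 to 75742 with BMP, with 2 called lower. Against CNTF, 3 markers of each of these lists were lower with BMP. Fibroblast marker sums were 2484 to 10096 in the controls and 6413 to 32336 with BMP, with 1 of 6 called higher. The neuron marker sums were 12872 to 24937 in the controls and 18491 to 54767 with BMP, with 2 of 6 markers called higher. Against CNTF, 2 neuron markers and 1 fibroblast marker were called higher with BMP. Of the dim lists, 1 endothelial marker was called higher with BMP and 1 Schwann cell marker with CNTF. Of all probe sets, 3.44% were called higher and 2.57% lower with BMP than in the controls. The part of these cell markers in the Il6st differences was not tested.

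Cntfr, the receptor chain that binds CNTF itself, was lower in the CNTF arrays on average but did not pass the test. By 1394008_x_at the controls ran from 10.47 to 11.45 (median 10.92), the BMP arrays from 10.23 to 10.86 (median 10.70) and the CNTF arrays from 9.97 to 10.77 (median 10.37). By 1392749_at they ran from 10.16 to 11.05, from 9.76 to 10.74 and from 9.83 to 10.59. All groups overlapped by both probe sets.

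The CNTF difference of Cntfr was -0.52 by both probe sets, with standard errors of 0.18 and 0.19 and 95% intervals of -0.89 to -0.14 (1394008_x_at) and -0.91 to -0.12 (1392749_at). The limma adjusted p was 0.186 and 0.229, and 0.106 and 0.0519 with the block. The CNTF array was the lower in 5 of 6 pairs by the first and in 6 of 6 by the second. Within pairs the difference ran from -1.39 to 0.16 and from -1.18 to -0.06. With BMP the differences were -0.29 ± 0.18 and -0.28 ± 0.19 (adjusted p = 0.426 and 0.494), and BMP minus CNTF was 0.22 and 0.24 (adjusted p = 0.617 for each). The order of means was control, BMP, CNTF by both, and no neighbours in it differed beyond the test's threshold. The probe sets correlated at r = 0.81 over the 18 arrays and at 0.72 after group means had been subtracted.

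Lifr was dim, and its 2 probe sets did not follow each other (r = 0.24 over the 18 arrays, 0.02 after group means had been subtracted). By 1369228_at the controls ran from 7.78 to 8.81, the BMP arrays from 8.11 to 9.11 and the CNTF arrays from 7.57 to 8.75. By 1395957_at they ran from 7.68 to 8.93, from 8.21 to 8.96 and from 7.79 to 8.83. BMP had the highest mean by both, and all groups overlapped.

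The BMP difference of Lifr was 0.57 (95% interval 0.07 to 1.07) by 1369228_at and 0.25 (-0.20 to 0.69) by 1395957_at, with limma adjusted p = 0.191 and 0.61. The CNTF difference was 0.04 (-0.46 to 0.54) and -0.19 (-0.63 to 0.25), with adjusted p = 0.982 and 0.861. BMP minus CNTF was 0.52 and 0.44 (adjusted p = 0.253 and 0.291), higher with BMP in 5 of 6 and 6 of 6 pairs. None of these was called with the block.

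Cntf, the ligand made in the nervous system by glia, was measured by 1368658_at at a median percentile of 72.3 in the controls, 69.4 with BMP and 71.9 with CNTF. Its deposited intensity was 1930 to 3621 in the controls (median 2653), 2140 to 2504 with BMP (median 2345) and 1924 to 3080 with CNTF (median 2600). All groups overlapped, and the BMP arrays lay within a narrower range (SD of the log2 level 0.09, against 0.34 in the controls). The differences were -0.16 (95% interval -0.46 to 0.13) with BMP and -0.07 (-0.36 to 0.23) with CNTF, with limma adjusted p = 0.618 and 0.946. BMP minus CNTF was -0.09 (-0.39 to 0.20, adjusted p = 0.833). The RNA of the cells was measured here, so the CNTF protein that was added is not part of these values.

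Lif, Clcf1 and Il6r were in the dimmest part of the arrays. Lif encodes leukemia inhibitory factor, and Clcf1 encodes a cytokine that also acts through Cntfr. Median percentiles in control, BMP and CNTF arrays were 5.4, 14.1 and 17.4 for Lif, 6.2, 11.6 and 10.7 for Clcf1 and 7.4, 6.1 and 15.9 for Il6r. Deposited intensities of Lif were 6.41 to 118 in the controls, 10.4 to 150 with BMP and 11.9 to 221 with CNTF. Those of Clcf1 were at most 131 and those of Il6r at most 182, beside a table median of 746.4. A low intensity on these arrays does not show that the transcript was absent.

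None of the 3 dim genes was called in any comparison, and their groups overlapped throughout. Lif differed by 0.45 (95% interval -0.11 to 1.0) with CNTF and 0.32 (-0.23 to 0.88) with BMP, with limma adjusted p = 0.603 and 0.594. Il6r differed by 0.25 (-0.22 to 0.72) and -0.01 (-0.48 to 0.46), with adjusted p = 0.804 and 0.99. Clcf1 differed by 0.01 (-0.38 to 0.39) and 0.18 (-0.21 to 0.57), with adjusted p = 0.997 and 0.695. BMP minus CNTF was -0.12 for Lif, -0.26 for Il6r and 0.17 for Clcf1 (adjusted p = 0.896, 0.654 and 0.74). The constant of 116.655 exceeds most of these intensities, so these differences are damped.

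The rest of the pathway was taken from 4 lists with 52 genes, 48 of them measured, each by its brightest probe set. In the counts below, a gene that rose or fell is one that was called. Beside them, 2.32% of all probe sets were called with CNTF, 6.01% with BMP and 6.23% for BMP against CNTF. With the block these shares were 7.57%, 16.7% and 15.1%. The CNTF and control groups did not overlap for 1.97% of all probe sets. Of 7 measured ligands and receptors of the family outside the members, 6 lay below the table median of 9.75 in every group. Il6, Il11, Osm and Il27ra, which encode interleukins 6 and 11, oncostatin M and an interleukin 27 receptor chain, had group means between 7.14 and 7.86. Ebi3, which encodes an interleukin 27 subunit, had group means of 9.13 to 9.33. Il11ra1, the binding chain for interleukin 11, was the brightest, at 10.98 ± 0.30 in the controls, 11.53 ± 0.44 with BMP and 10.64 ± 0.38 with CNTF.

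Of these 7 genes, 1 rose with BMP and 0 were called with CNTF by limma without or with the block (0 at an unadjusted p under 0.05 without it; with it Il11ra1, at -0.34 and lower in 5 of 6 pairs, had an unadjusted p of 0.0179 and an adjusted p of 0.14). Ctf1, which encodes cardiotrophin 1, rose with BMP from 8.55 ± 0.29 to 9.29 ± 0.37 (+0.74 ± 0.19, adjusted p = 0.026, 6 of 6 pairs). This call was lost without any 1 of controls 1 to 4 or BMP arrays 1 to 3 (adjusted p = 0.0501 to 0.0675). Il11ra1 was higher with BMP than with CNTF (+0.90 ± 0.20, adjusted p = 0.0107, 6 of 6 pairs). Against the controls its BMP difference of 0.55 had an adjusted p of 0.125, and 0.00778 with the block.

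Of 11 JAK-STAT and adaptor genes, 3 rose and 0 fell with CNTF. Jak1, a kinase bound to gp130, rose from 14.07 ± 0.18 to 14.93 ± 0.16 (+0.86 ± 0.11, limma adjusted p = 7.69e-05). Jak2, a related kinase, rose from 11.60 ± 0.14 to 12.15 ± 0.13 (+0.54 ± 0.11, adjusted p = 0.0068), and Stat3 differed by 1.11 ± 0.19 (adjusted p = 0.0021). In all 3 the groups did not overlap. With the block 5 rose: Tyk2, another kinase of the family, and the adaptor Gab1 were added (differences of 0.36 and 0.26, adjusted p = 0.0251 and 0.0121, and 0.309 and 0.308 without it). The median difference of the 11 was 0.26, beside -0.007 over all probe sets.

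With BMP, Jak1 rose to 14.47 ± 0.22 (+0.39 ± 0.11, limma adjusted p = 0.0315) and Gab1 fell from 14.00 ± 0.17 to 13.34 ± 0.21 (-0.66 ± 0.10, adjusted p = 0.00115). The Jak1 call was lost without any 1 of controls 1, 3 and 4 or BMP arrays 1, 2, 3, 5 and 6 (adjusted p = 0.0511 to 0.074), and a second Jak1 probe set was called as well (+0.45, adjusted p = 0.037). Like Il6st, Jak1 had the order CNTF, BMP, control, and here BMP was called against both neighbours (BMP minus CNTF -0.47 ± 0.11, adjusted p = 0.0108). Gab1, Jak2 and Stat3 were also called lower with BMP than with CNTF (-0.91, -0.46 and -0.85, adjusted p = 2.93e-05, 0.012 and 0.009). The second Stat3 probe set gave 1.06 for CNTF (adjusted p = 0.00232).

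Of 10 inhibitors, 2 rose and 0 fell with CNTF. Socs3, the feedback inhibitor that binds gp130, was at 8.87 ± 0.37 in the controls, 9.04 ± 0.09 with BMP and 12.04 ± 0.39 with CNTF, a rise of 3.17 ± 0.18 over the controls (limma adjusted p = 3.15e-09). It was 8-fold higher with CNTF than with BMP (adjusted p = 1.31e-08). Socs2, an inhibitor of the same family, rose by 1.44 ± 0.25 with CNTF (adjusted p = 0.00223). With the block Socs5 was added (0.30, adjusted p = 0.0353, 0.36 without it). No inhibitor was called with BMP by limma without or with the block, and 1, Socs2, had an unadjusted p under 0.05 (difference 0.63, adjusted p = 0.156).

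Of 20 STAT3 target genes outside these lists, 9 rose and 0 fell with CNTF, and 2 rose and 2 fell with BMP. The 6 with the smallest adjusted p for CNTF were Cebpd, A2m, Fos, Junb, Timp1 and Cebpb, a mixture of transcription factors and protease inhibitors, with limma differences of 3.78, 4.36, 3.20, 2.15, 2.33 and 1.24 (adjusted p = 2.93e-10 to 0.00401). With BMP, Cebpd and Fos rose by less (+0.82 and +1.08, adjusted p = 0.0113 and 0.0434), and Bcl3 and Myc fell (-0.75 and -0.53, adjusted p = 0.0387 and 0.0311). Bcl3, a regulator of NF-kB, rose with CNTF (+0.97, adjusted p = 0.0157). Gfap, which is also one of the astrocyte markers above, rose by 3.96 ± 0.78 with CNTF (adjusted p = 0.00708). With BMP its difference was 2.33 ± 0.78, higher in 6 of 6 pairs (limma adjusted p = 0.0867, and 0.0169 with the block). BMP minus CNTF was -1.63 for Gfap and was not called (adjusted p = 0.286). Its level varied widely in the controls, from 8.39 to 14.89, and its CNTF difference within pairs ran from 1.55 to 7.39. Against CNTF, 6 targets were lower with BMP: Cebpd, A2m, Junb, Bcl3, Fos and Myc (-2.96, -3.25, -1.78, -1.73, -2.11 and -0.51, adjusted p = 1.67e-08 to 0.0363). The Myc difference was lost without any 1 of BMP arrays 1 to 5 or CNTF arrays 2, 4, 5 and 6 (0.0535 to 0.0913).

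The Fos call with BMP was lost without any 1 of controls 1 to 4, BMP arrays 1, 2, 3 and 5 or CNTF arrays 2, 4 and 5 (adjusted p = 0.0521 to 0.112). The Bcl3 fall was lost without controls 1, 2, 3, 5 or 6 or BMP arrays 1 to 5 (0.0529 to 0.0846), and the Myc fall with BMP without controls 2, 4 or 6 or BMP arrays 1, 2, 3 or 5 (0.0552 to 0.077). Of the other Cebpd probe sets, 1 rose with CNTF as well (+3.99, adjusted p = 9.10e-08) and 1 gave 0.01, not called, and neither was called with BMP (0.60 and -0.12, adjusted p = 0.289 and 0.883). The other Fos probe set was not called with CNTF (-0.31) or BMP (-0.17). The other Bcl3 probe sets gave -0.24 and -0.03 for BMP, not called, and 0.99 and 2.34 for CNTF (adjusted p = 0.0549 and 0.000272). Icam1, an adhesion molecule, rose with CNTF by 1.59 (adjusted p = 0.0481), and this call was lost without any 1 of 14 arrays, which are controls 1, 2, 3, 5 and 6, BMP arrays 1, 3 and 4 and CNTF arrays 1 to 6 (0.0553 to 0.121). With the block 6 targets rose and 4 fell with BMP. Beyond Cebpd and Fos, these rises were A2m, Cebpb, Gfap and Timp1 (+1.11, +0.65, +2.33 and +1.15). Their limma adjusted p with the block was 0.0237, 0.0497, 0.0169 and 0.00955, and without it 0.0545, 0.103, 0.0867 and 0.0813. Beyond Bcl3 and Myc, the falls were Ccnd1 and Hif1a (-0.73 and -0.27, adjusted p = 0.04 and 0.00549 with the block, 0.349 and 0.126 without).

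Some calls that held without any single array were lost without all 3 arrays of a title number. With CNTF these were Bcl3 without number 1, 4 or 5 (limma adjusted p = 0.0731, 0.0924 and 0.0685), Gfap without number 2 or 3 (0.0557 and 0.0583) and Jak2 without number 3 (0.0583). With BMP it was Cebpd without number 1, 2 or 3 (0.0545, 0.0664 and 0.0603). For BMP against CNTF they were Jak2 without number 2, 3, 4 or 5 (0.0509 to 0.0652), Jak1 without number 2 (0.055) and Il11ra1 without number 1 (0.0523).

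Over the 48 genes, 14 rose and 0 fell with CNTF, against 2.32% of all probe sets called either way, and 4 rose and 3 fell with BMP, against 6.01%. With the block these were 18 and 0 (7.57% of all probe sets) and 9 and 5 (16.7%). BMP against CNTF had 1 called higher and 11 lower with BMP, against 6.23%, and 1 and 17 with the block, against 15.1%. The genes were counted by their brightest probe sets, while the shares cover all probe sets, also dimmer ones and those without a symbol. The counts and shares are therefore not like for like. These lists were chosen with earlier results of these data known.

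**Figure D4:**
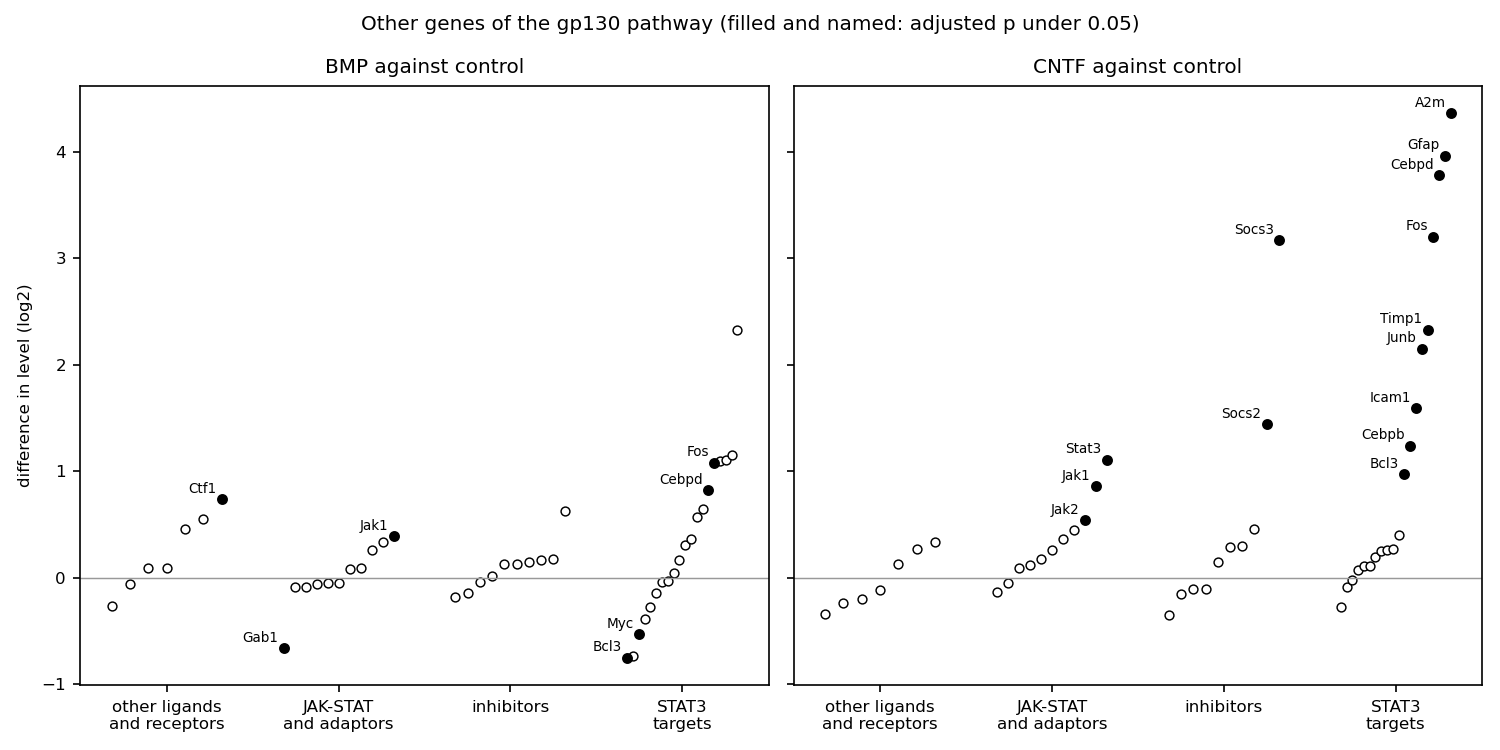
Differences in level (log2) of the 48 measured pathway genes outside the members, in 4 lists, for BMP (left) and CNTF (right) against control; each point is 1 gene by its brightest probe set, and filled, named points have a limma adjusted p under 0.05. With CNTF all 14 filled points lie above 0, the highest being A2m at 4.36, and with BMP 4 lie above and 3 below.

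The genes most like a member in level were sought among probe sets whose highest group mean was at or above the table median. For Il6st (1370957_at) they were the growth factor Igf2, the non-coding RNA H19 and the small heat shock protein Hspb1, with Pearson r = 0.921, 0.920 and 0.904 over the 18 arrays. These points share the group differences. After group means had been subtracted r was 0.723, 0.713 and 0.641. Each of the 3 had the same order of group means as Il6st, at 15.66, 12.05 and 9.30 for Igf2 in CNTF, BMP and control arrays. Choosing them by correlation over these arrays favoured a shared order, so it is a description only. In the controls Igf2 and Hspb1 (9.30 and 9.34) lay below the table median of 9.75.

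For Cntfr (1394008_x_at) the most similar were Limch1, the secreted Wnt modulator Sfrp2 and Fiz1 (r = 0.835, 0.817 and 0.802, and 0.761, 0.709 and 0.757 after group means had been subtracted). Limch1 and Sfrp2 were called lower with CNTF by limma (-0.61 and -1.26, adjusted p = 0.00491 and 0.00511). Their choice by correlation favoured the direction of Cntfr here too. For Cntf the most similar were Lpin2, Mrps14 and Cfap20 (r = 0.829, 0.791 and 0.765), none of them called in any comparison.

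The RefSeq promoter table (build GRCr8) held 5 entries under the symbols of the 8 member genes. An entry covers 250 bases before and 50 after a gene's start. The entry of Il6st starts inside the gene's span in the same reference and was not used as its promoter, which leaves 4. The STAT motif TTCNNNGAA, which reads the same on both strands, was in 0 of these 4 and in 8.87% of all 33469 entries. No match says only that these letters are not in these windows.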

How the data were processed

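The deposited table holds 1 intensity per probe set and array, on a linear scale, as the authors made it. How probe signals were summarised and scaled is not given in the sources used here. Over all 18 arrays the 2% trimmed mean was 2500.7 to 2500.8, so the values had been scaled to a common level. No further normalization was applied. Levels were log2(intensity + 116.655), where 116.655 is the table's 20th percentile. After 57 control probe sets were left out, 31042 were tested with limma 3.58.1 (R 4.3.3; lmFit on 3 group means, eBayes with intensity trend, two-sided, Benjamini-Hochberg over all probe sets, called at 0.05). The procedure was tested on simulated data.

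Gene symbols come from GEO's platform annotation: 20826 probe sets have 1 symbol, 436 several and 9780 none, and 20764 were matched to the reference by gene ID. Members and lists were chosen with earlier results of these data known. Named genes were all member probe sets, each pathway gene called in a comparison (the 6 with the smallest adjusted p where more were called), the uncalled ligands and receptors, and the 3 genes most correlated with the brightest probe set of each member at or above the table median.

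Arrays of the same title number deviated together from their group means in 18 of 18 pairs (r = 0.12 to 0.49). Arrays of different numbers were not compared in this way, so the pairing by number is an assumption. The number was also fitted as a block, as an alternative. Other alternatives were other constants, quantile normalization, a filter on dim probe sets, no intensity trend, 2 groups only, another probe set per gene, and leaving out each array or number.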

Additional observations from a re-analysis of the deposited data

Results flagged for a closer look

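In 4 of 90 groups of 6 arrays, 1 array stood apart from the others by Dixon's criterion on its gap to the nearest array, where chance gives about 1 in 20. None of the 36 groups of member probe sets was among them. Il11ra1 was at 10.41 in control 4 and 10.91 to 11.15 in the other controls. Cebpb was at 8.68 in CNTF array 1 and 9.54 to 9.77 in the others. Gfap was at 15.78 in the same CNTF array and 16.32 to 16.53 in the others. Cebpd was at 8.58 in BMP array 4 and 9.24 to 9.59 in the others.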

How the results depend on the processing

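The Il6st differences for CNTF against control kept their calls by the 3 called probe sets in 7 of 7 other settings and 24 of 24 fits without an array or a number. With the replicate block, the counts of all called probe sets were 5176 for BMP against control (1865 without it), 2349 for CNTF against control (721) and 4686 for BMP against CNTF (1934). The block moved the member counts to 2 for BMP against control and 4 for BMP against CNTF, and that of pathway genes for BMP against control from 7 to 14. It changed no call of a member gene other than Il6st. For BMP against CNTF no member was called with quantile normalization, no intensity trend or 2 groups only (0 each), and with 2 groups only the count for BMP against control was 0. Pathway genes for BMP against control numbered 4 with the table median as the constant and 4 with 2 groups only.

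Without 1 array or 1 number, all called probe sets ranged from 740 to 2097 (BMP against control), 366 to 795 (CNTF against control) and 1111 to 1985 (BMP against CNTF), members from 0 to 2, 3 to 4 and 0 to 3, and pathway genes from 1 to 9, 11 to 14 and 10 to 14. Small uncalled differences changed sign: Clcf1 for CNTF was -0.01 with quantile normalization, and Il6r for BMP was 0.03 with a constant of 16. Without an array or a number, Clcf1 for CNTF ranged from -0.07 to 0.14, Cntf for CNTF from -0.16 to 0.06, Il6r for BMP from -0.15 to 0.12, Lif for BMP against CNTF from -0.33 to 0.10 and Lifr 1369228_at for CNTF from -0.10 to 0.18. The causes were not tested. The filter on dim probe sets removed Lifr, Il6r, Lif and Clcf1, which therefore have no value there, and low signal limits what can be said of them.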
